A study of Homo sapiens with 6 samples.

Results

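The genes described here are the p53 regulators MDM2 and MDM4 and 7 genes that p53 is known to activate directly, CDKN1A, TP53INP1, SESN1, RRM2B, ZMAT3, BTG2 and GADD45A. They were chosen by name for their place in the p53 pathway and make up 9 of the 33707 genes in the expression table. Of the 9, 7 reached 1 RPKM on average across the 6 libraries and were tested among 13158 such genes, while ZMAT3 and CDKN1A lay under that level. RPKM divides a gene's reads by its length in kilobases and by the library's assigned reads in units of 1000000, so levels can be set side by side between genes. The transcript of p53 itself is not analysed here.

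The cells were Huh7, an established human hepatocellular carcinoma line, which is known to carry mutant p53. At day 2 after lipid transfection, messenger RNA was sequenced from 3 libraries given miR-361-3p mimics (genotype tag miR-361-3p mimics) and 3 given the negative control mimics-NC (genotype tag WT). A mimic is a synthetic RNA that supplies a cell with extra copies of a microRNA. RiboBio designed both reagents, whose sequences the sources used here do not give. Replicate 3 of the mimic libraries has Huh8 as its cell line tag but Huh7 in its title and treatment tag, and the treatment tag of the mimics-NC libraries names wild type cells and no reagent. Nothing says that the replicates were separate cultures, so each p-value measures only the spread between these libraries. In bulk RNA, fewer cells of a kind and less RNA per cell cannot be told apart.

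The p53 protein is a transcription factor that damage and other stress stabilise. It switches on genes that halt the cell cycle, repair DNA, limit oxidation or start cell death. MDM2 is both a target of p53 and the ubiquitin ligase that marks p53 for destruction, which closes a negative feedback loop, and MDM4 is a related protein that binds p53 and holds back its activity. Most p53 mutants found in tumours bind these targets poorly.

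The libraries held 42196419, 52977132 and 47616126 assigned reads for mimics-NC and 35020139, 44774192 and 44710704 for the mimic. All 7 hepatocyte markers measured reached 1 RPKM, with a summed level of 2981 to 3052 RPKM in mimics-NC and 2851 to 2921 RPKM in mimic libraries. FGB carried most of this sum, with means of 2106 RPKM in mimics-NC and 1947 RPKM with the mimic. Its groups did not overlap, and it passed limma with voom weights on recovered reads (adjusted p = 0.00385) but not limma (0.103). AFP was the lowest marker, at 1.24 and 1.18 RPKM. Of 9 markers of immune, endothelial and fibroblast cells, 2 reached 1 RPKM, LYZ and PECAM1, and the list summed to 15.8 to 16.9 RPKM and 15.8 to 18.8 RPKM. None of the 9 was at 0 in every library. Under that level, the fibroblast collagens COL1A1 and COL3A1 stood at 62.3% and 62.2% of the control mean in mimic libraries (0.978 ± 0.256 and 0.851 ± 0.274 RPKM in mimics-NC, 0.610 ± 0.0989 and 0.529 ± 0.161 RPKM with the mimic, SD, n = 3 each). Their groups overlapped, and they passed limma with voom weights on recovered reads (adjusted p = 0.00231 and 0.0151) but not limma without the filter (0.244 and 0.361). VWF, an endothelial marker, held 6 to 13 reads per control library and 0 to 4 per mimic library. The part of such markers in the results was not tested.

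With the mimic, MDM2 and TP53INP1 fell, and no member rose. ZMAT3 was lower in every mimic library, under the level set for the test. CDKN1A, the best known p53 target, was barely present in either group. MDM4, SESN1, RRM2B, BTG2 and GADD45A did not pass the test. Differences were tested on log2(RPKM + 0.5) with limma over all 13158 genes and called at a Benjamini-Hochberg adjusted p under 0.05, and a fold on this scale understates the change of low genes. Over all tested genes 21.5% were called, 11.7% higher and 9.85% lower with the mimic. Of the 7 members tested, 2 were called lower (28.6%) and 0 higher, counts too small to set the members apart from the other genes. TP53INP1 entered this count only through its control level, as its mimic libraries lay under 1 RPKM. The median difference of the 7 was -0.07 and that of all tested genes 0.01 on the log2 scale.

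**Figure D1:**
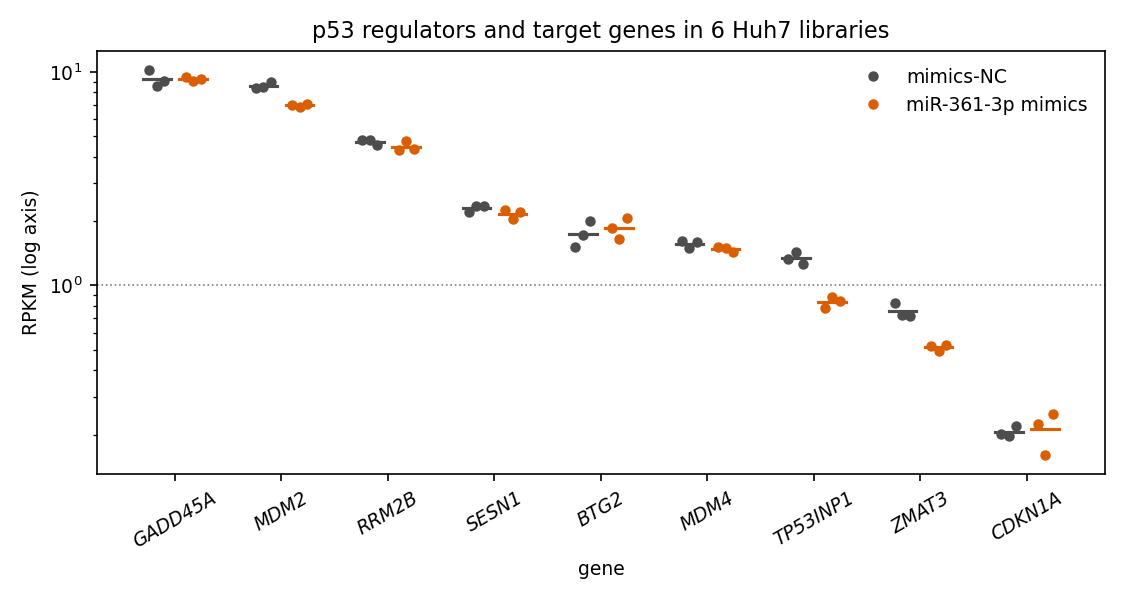
Level of each member in RPKM on a log axis (vertical) in the 3 mimics-NC and the 3 miR-361-3p mimic libraries, with points for libraries, short lines for group means and a dotted line at 1 RPKM, the mean needed for the test. The groups do not overlap for MDM2, TP53INP1 and ZMAT3, and they overlap for the other 6 genes.

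MDM2 lies on chromosome 12 at 68808176 to 68850686, plus strand, of GRCh38. It measured 8.39, 8.48 and 8.93 RPKM in the mimics-NC libraries and 7.005, 6.82 and 7.05 RPKM in the mimic libraries, on 3255 to 5963 reads per library. Every mimic library lay below every control library. The mean fell from 8.60 ± 0.290 to 6.96 ± 0.124 RPKM (SD, n = 3 each), to 80.9% of the control level. The log2 difference was -0.29 (SE 0.041, 95% interval -0.38 to -0.19, limma adjusted p = 0.00399), and it ran from -0.30 to -0.26 with any 1 library left out, with all 6 of these fits called. Voom on the recovered whole reads of genes with a mean of at least 10 gave -0.32 (adjusted p = 1.37e-05).

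Exons of 2 genes on the opposite strand overlap those of MDM2, and the sources used here do not say whether the counting used strand. CPM, which encodes the membrane enzyme carboxypeptidase M, measured 3.57 ± 0.0434 RPKM in mimics-NC and 3.43 ± 0.111 RPKM in mimic libraries (SD, n = 3 each, limma adjusted p = 0.473). The transcript RP11-611O2.5 (chromosome 12, 68841288 to 68843237, minus strand), which overlaps the 3' part of MDM2, fell from 19.8 ± 1.41 to 14.1 ± 1.97 RPKM (log2 difference -0.49, limma adjusted p = 0.0159). It held 328 to 795 reads per library against 3255 to 5963 for MDM2, and the part of shared reads in the change of MDM2 was not tested.

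The promoter inside MDM2 from which p53 drives transcription carries at least 1 p53 site. The site matched is shown here because it ties MDM2 to the pathway. The window, from RefSeq on GRCh38.p14, spans chr12:68808767-68809066 on the plus strand, 250 bases before to 50 after a transcript start. Capitals mark the match to the p53 full site, 2 abutting 10-base half-sites of the p53 consensus, each with at most 1 mismatch and with the fixed C and G of its core. The consensus is a palindrome, so 1 strand covers both. A p53 site without the fixed C or G stays in lower case under this rule.
MDM2 internal promoter: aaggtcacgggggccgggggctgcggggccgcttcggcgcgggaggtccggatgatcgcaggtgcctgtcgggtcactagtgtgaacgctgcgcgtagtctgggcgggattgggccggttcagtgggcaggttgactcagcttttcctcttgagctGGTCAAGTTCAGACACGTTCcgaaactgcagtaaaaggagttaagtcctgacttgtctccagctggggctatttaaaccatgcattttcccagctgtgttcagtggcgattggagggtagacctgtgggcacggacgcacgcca
Such a match was found in 55 of 35116 promoter windows of the genome (0.157%), and the match rule was chosen with the MDM2 site in mind. RefSeq windows were matched for 6 of the 9 members, and MDM2 alone among them held a match. Among 97 genes of the pathway lists below with a window, DDB2 and GLS2 held one. No match says only that these letters are not in the window.

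Matches to the seed of miR-361-3p in the 3' untranslated regions (UTRs) of the members are shown next, since a microRNA pairs with messenger RNA mainly through the seed, bases 2 to 8, here in capitals. The mature sequence from RefSeq (GRCh38.p14, chrX:85903641-85903663, minus strand) stands first, then 30 bases around 1 match in each of 4 members, capitals marking the matched letters.
miR-361-3p: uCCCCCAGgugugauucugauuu
MDM2, chr12:68849992-68850021, plus strand: aaaaacccttggCTGGGGGgtgatggctca
ZMAT3, chr3:179024850-179024879, minus strand: agatgtcaaaacCTGGGGGcccgggggcgg
GADD45A, chr1:67687906-67687935, plus strand: caactacatgttCTGGGGGcccggagatag
BTG2, chr1:203307815-203307844, plus strand: tcgggatttgccCTGGGGGAggaagagagg
The motifs searched on the transcript strand were CTGGGGG (7mer-m8), TGGGGGA (7mer-A1) and CTGGGGGA (8mer), which contains both others. At least 1 of them occurred in 8 of the 9 members, SESN1 being the exception, and in 24.8% of 19081 genes with an annotated UTR (GENCODE 29, longest per gene). The members' UTRs are long, with a median of 3631 bases against 1087 over all genes, and that of MDM2 has 10837. BTG2 and TP53INP1 hold the 8mer, which 5.77% of genes have. A seed match was present both in the members that were lower with the mimic (MDM2, TP53INP1 and ZMAT3) and in members that did not pass the test (BTG2, GADD45A, MDM4, RRM2B and CDKN1A).

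MDM4 (chromosome 1, 204516379 to 204558120, plus strand) measured 1.61, 1.499 and 1.603 RPKM in mimics-NC and 1.51, 1.499 and 1.43 RPKM in mimic libraries. The ranges overlapped. The means were 1.57 ± 0.0610 and 1.48 ± 0.0420 RPKM (SD, n = 3 each), with a log2 difference of -0.06 (95% interval -0.21 to 0.09, limma adjusted p = 0.515). MDM4 stood at 0.183 ± 0.00785 of MDM2 in the control libraries and at 0.213 ± 0.00874 in mimic libraries, and this ratio, taken within each library, needs no scaling between libraries. The ratio was 0.191, 0.177 and 0.179 in mimics-NC and 0.216, 0.220 and 0.203 in mimic libraries, again without overlap. Its two-sided exact permutation p was 0.1, the smallest that 3 against 3 libraries can give. The ratio of the 2 RNA levels differed by 0.22 on the log2 scale, and by 0.20 to 0.26 with any 1 library left out. It uses the same MDM2 values as the MDM2 call above, so it is not separate evidence. Protein was not measured.

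CDKN1A encodes p21, the inhibitor of cyclin-dependent kinases through which p53 halts the cell cycle (chromosome 6, 36676460 to 36687339, plus strand). It measured 0.202, 0.198 and 0.220 RPKM in mimics-NC and 0.225, 0.161 and 0.249 RPKM in mimic libraries. These values rest on 22 to 34 reads per library, and the mimic libraries span the control range. The reads were 26, 32 and 32 in mimics-NC and 24, 22 and 34 in mimic libraries, all even, as were those of BTG2. Whether both reads of a pair were counted separately was not tested. If so, the CDKN1A values rest on fewer independent fragments than reads. The means were 0.207 ± 0.0119 and 0.212 ± 0.0455 RPKM (SD, n = 3 each). Limma with voom weights, run on the recovered whole reads of genes with a mean of at least 10, gave a log2 difference of -0.01 with a 95% interval of -0.63 to 0.62 (adjusted p = 0.993). A change of up to about that size in either direction was not detectable at this depth.

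BTG2 is an antiproliferative partner of the machinery that removes poly(A) tails (chromosome 1, 203305491 to 203309602, plus strand). It measured 1.51, 1.73 and 2.00 RPKM in mimics-NC and 1.86, 1.65 and 2.06 RPKM in mimic libraries, and the groups overlapped. The means were 1.74 ± 0.242 and 1.86 ± 0.204 RPKM (SD, n = 3 each, log2 difference 0.07, 95% interval -0.17 to 0.31, limma adjusted p = 0.648).

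GADD45A, a stress sensor that acts on kinases and on DNA repair (chromosome 1, 67685061 to 67688338, plus strand), was the most abundant member by mean. It measured 10.2, 8.56 and 9.05 RPKM in mimics-NC and 9.45, 9.09 and 9.28 RPKM in mimic libraries. The mimic values all fell inside the control range. The means were 9.27 ± 0.839 and 9.27 ± 0.182 RPKM (SD, n = 3 each, limma adjusted p = 0.974), with a 95% interval of the log2 difference from -0.15 to 0.15.

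ZMAT3, a zinc finger protein that binds RNA and acts in growth arrest downstream of p53 (chromosome 3, 179017223 to 179072279, minus strand), was lower in all mimic libraries. It measured 0.830, 0.724 and 0.716 RPKM in mimics-NC and 0.518, 0.495 and 0.526 RPKM in mimic libraries, on 329 to 370 and 175 to 227 reads. The groups did not overlap, and the mimic mean was 67.8% of the control mean (0.757 ± 0.0638 and 0.513 ± 0.0160 RPKM, SD, n = 3 each). Without a filter on low values limma gave a log2 difference of -0.31 with an adjusted p of 0.109, which did not pass. Voom on the recovered reads gave -0.56 (95% interval -0.79 to -0.34, adjusted p = 0.000413), which passed, as it did with any 1 library left out. With voom 3 of the 9 members were lower and 0 higher, where 21.0% of 18891 genes were called and 10.7% were lower. These fits differ in the genes included, the constant added to RPKM, the scaling between libraries, the trend of the empirical Bayes step and the weights. With 0.1 added in place of 0.5, limma without the filter gave -0.48 (adjusted p = 0.11), which did not pass either. Which of the other differences decides the call of ZMAT3 was not tested.

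TP53INP1, a stress protein of the nucleus that enhances p53 activity and takes part in autophagy (chromosome 8, 94925972 to 94949411, minus strand), showed the largest relative drop of the 9 members. It measured 1.34, 1.44 and 1.27 RPKM in mimics-NC and 0.785, 0.881 and 0.847 RPKM in mimic libraries. All 3 mimic libraries lay below all 3 controls and under 1 RPKM. The mean over the 6 libraries was 1.09 RPKM, so TP53INP1 reached the test only through its control libraries. The mean fell from 1.35 ± 0.0861 to 0.838 ± 0.0490 RPKM (SD, n = 3 each), to 62.2% of the control level, with a log2 difference of -0.46 (SE 0.077, 95% interval -0.65 to -0.28, limma adjusted p = 0.00683). The gene held 156 to 432 reads per library. Voom on the recovered reads, with no 0.5 added to the RPKM, gave -0.69 (95% interval -0.92 to -0.47, adjusted p = 4.49e-05). With any 1 library left out the limma difference ran from -0.50 to -0.43 and stayed called.

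SESN1, a sestrin that restrains the growth kinase mTORC1 under stress (chromosome 6, 108986437 to 109094819, minus strand), measured 2.22, 2.34 and 2.36 RPKM in mimics-NC and 2.26, 2.04 and 2.21 RPKM in mimic libraries. The ranges overlapped. The means were 2.31 ± 0.0793 and 2.17 ± 0.117 RPKM (SD, n = 3 each), with a log2 difference of -0.07 (95% interval -0.21 to 0.07, limma adjusted p = 0.424). An exon of RP11-787I22.3 overlaps SESN1 on the opposite strand, and this transcript measured 4.16 ± 0.627 and 3.56 ± 0.423 RPKM (limma adjusted p = 0.27).

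RRM2B, the p53-inducible small subunit of ribonucleotide reductase, which supplies DNA precursors for repair (chromosome 8, 102204502 to 102239118, minus strand), measured 4.78, 4.78 and 4.53 RPKM in mimics-NC and 4.31, 4.72 and 4.36 RPKM in mimic libraries. The ranges overlapped. The means were 4.70 ± 0.144 and 4.47 ± 0.223 RPKM (SD, n = 3 each), with a log2 difference of -0.07 (95% interval -0.19 to 0.05, limma adjusted p = 0.396). RRM1, the large subunit, fell from 47.3 ± 1.27 to 34.6 ± 1.67 RPKM (log2 difference -0.45, limma adjusted p = 0.000994). RRM2, the small subunit of S phase, fell from 31.2 ± 0.0515 to 27.8 ± 0.573 RPKM (log2 difference -0.16, limma adjusted p = 0.0127), a call lost without mimic replicate 3 (adjusted p = 0.052). The ratio of RRM2B to RRM2 was 0.153, 0.153 and 0.145 in mimics-NC and 0.152, 0.170 and 0.160 in mimic libraries, which overlapped (two-sided exact permutation p = 0.3).

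**Figure D2:**
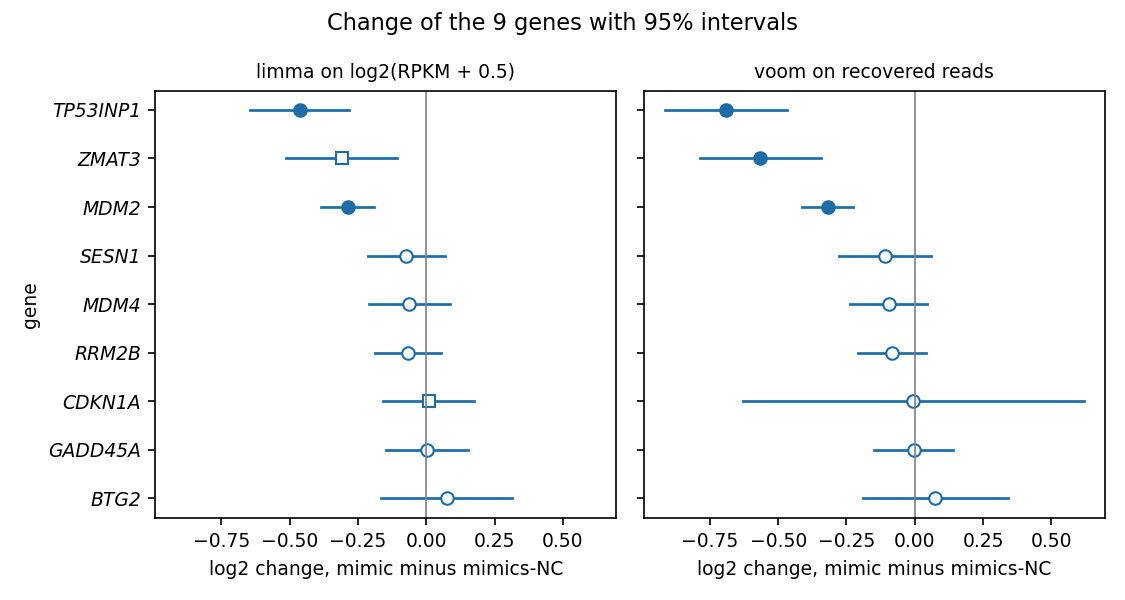
Difference of each member between mimic and mimics-NC libraries on the log2 scale (horizontal axes), with the 95% interval, from limma on log2(RPKM + 0.5) and from voom on the recovered reads, where filled marks passed the test and squares are genes under 1 RPKM fitted without the filter. The intervals of MDM2, TP53INP1 and ZMAT3 lie below 0, and those of the other 6 members cross it.

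In the control libraries the members' mean levels ran from GADD45A and MDM2 at the top through RRM2B, SESN1, BTG2, MDM4, TP53INP1 and ZMAT3 to CDKN1A. MDM2 stood above 62.5% of tested genes by its mean over all libraries, RRM2B above 46.9% and TP53INP1 above 2.58%. GADD45A and MDM2 overlapped in mimics-NC (8.56 RPKM as the lowest of the one, 8.93 RPKM as the highest of the other) but not in mimic libraries, where the lowest GADD45A value was 9.09 and the highest MDM2 value 7.05 RPKM. BTG2 overlapped with MDM4 in mimics-NC and with SESN1 in mimic libraries. All other neighbours in this order were apart in both groups. The groups of mimic and control libraries were without overlap for 3 of the 9 members, or 2 of the 7 tested, against 41.4% of all tested genes.

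**Figure D3:**
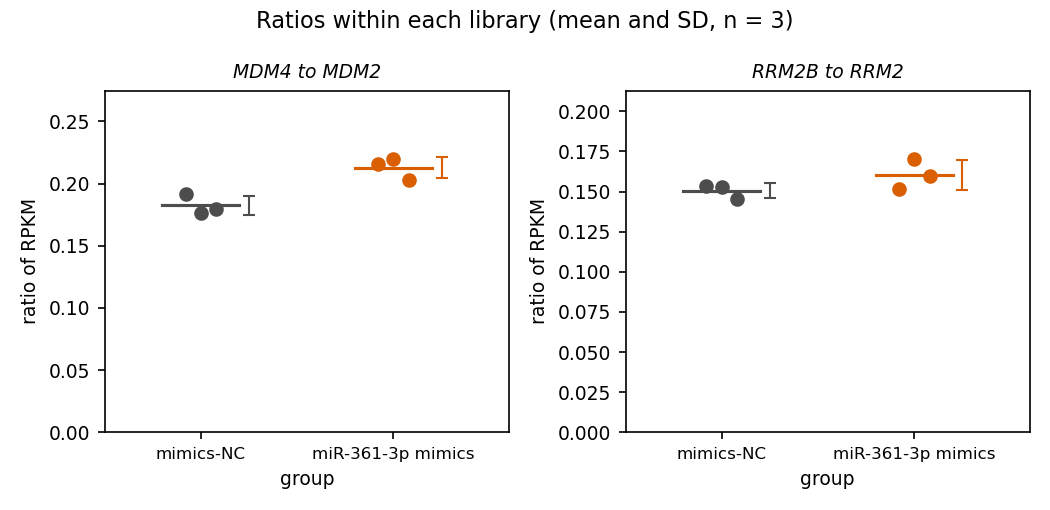
Ratio of RPKM within each library (vertical axes from 0) for MDM4 to MDM2 and RRM2B to RRM2, with points for the 3 libraries of each group, lines for the mean and error bars for the SD. The MDM4 to MDM2 ratios of the mimic libraries, 0.203 to 0.220, lie above those of the controls, 0.177 to 0.191, while the RRM2B to RRM2 ratios overlap.

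The genes whose centred log2(RPKM + 0.5) over the 6 libraries lay closest to that of MDM2 were HNF4G (root mean square difference 0.013), GJC1 (0.0169) and HAT1 (0.0179). Their means went from 1.52 to 1.14, from 1.41 to 1.08 and from 18.5 to 15.4 RPKM. Closest to CDKN1A were LRRC37A4P (0.0159), PANX1 (0.0165) and TAOK1 (0.0179). At 0.161 to 0.249 RPKM the added 0.5 flattens the CDKN1A profile, so genes with little change between libraries lie close to it. Both sets of nearest genes are descriptions over 6 libraries, in which all genes of a library share its depth.

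The regulators of the p53 protein were a list of 28 genes, of which 26 were tested, 2 rose and 3 fell (19.2% called against 21.5% of all tested genes), with a median log2 difference of 0.00. DYRK2, a kinase that phosphorylates p53, measured 1.63 ± 0.0812 RPKM in mimics-NC and 1.29 ± 0.0126 RPKM in mimic libraries (SD, n = 3 each). SIRT1, which removes acetyl groups from p53, measured 3.08 ± 0.149 and 2.56 ± 0.122 RPKM, and YY1, a transcription factor that promotes p53 turnover, 5.52 ± 0.143 and 4.78 ± 0.316 RPKM. TRIM24, a ubiquitin ligase for p53, measured 5.38 ± 0.173 and 6.02 ± 0.120 RPKM. HUWE1, another such ligase, measured 47.6 ± 0.953 and 52.6 ± 1.83 RPKM. These 5 calls were near the threshold (limma adjusted p 0.0333 to 0.0474). With voom on the recovered reads of the tested genes, 2 of the list rose and 6 fell. With 1 library left out, limma gave 0 to 1 of the list higher and 0 to 2 lower. The 2 that fell without mimic replicate 3 included a regulator not called in the fit of all 6 libraries. The calls of DYRK2, SIRT1 and TRIM24 were lost whichever library was left out, that of YY1 held only without mimic replicate 3 and that of HUWE1 only without mimic replicate 2. Both higher calls were lost under median-of-ratios scaling (HUWE1 adjusted p = 0.0705, TRIM24 0.077) and quantile normalization (0.0701 and 0.0617), and that of YY1 under the latter (0.0531).

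Direct p53 targets outside the members numbered 58, of which 38 were tested, 7 rose and 5 fell (31.6% called, median log2 difference 0.03), beside 11.7% higher and 9.85% lower among all tested genes. With 1 library left out 3 to 6 rose and 4 to 5 fell, with 3 rising without mimic replicate 1, mimics-NC replicate 2 or mimics-NC replicate 3 and 4 without mimic replicate 2. Among targets for the cell cycle and growth arrest, 4 of 8 were tested, 3 fell and 0 rose (median -0.24, beside 9.85% lower among all tested genes), and 2 to 3 fell with 1 library left out. E2F7, a repressor of E2F genes, fell from 2.50 ± 0.0339 to 1.68 ± 0.146 RPKM (log2 difference -0.47, limma adjusted p = 0.00406). SFN, the 14-3-3 sigma protein that holds back entry into mitosis, fell from 77.3 ± 4.22 to 63.8 ± 2.51 RPKM (-0.27, adjusted p = 0.0105). CCNG1, a cyclin G that works with MDM2, measured 14.6 ± 0.302 and 12.6 ± 0.758 RPKM (-0.21, adjusted p = 0.024), and its call held only without mimic replicate 3 when 1 library was left out.

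Of the apoptosis targets 10 of 17 were tested, 3 rose and 1 fell (median 0.15), beside 11.7% higher and 9.85% lower among all tested genes. With 1 library left out, 1 to 2 rose. PERP, a membrane protein of desmosomes and cell death, rose from 17.1 ± 0.449 to 25.9 ± 0.673 RPKM (log2 difference 0.59, limma adjusted p = 0.00029). PMAIP1, the BH3-only death protein NOXA, fell from 12.9 ± 0.911 to 8.52 ± 0.234 RPKM (-0.57, adjusted p = 0.000948). Both were without overlap between groups. BBC3 and PIDD1 lay under 1 RPKM and were not tested. BBC3 measured 0.568 ± 0.0288 RPKM in mimics-NC and 0.863 ± 0.0776 RPKM in mimic libraries, and PIDD1 0.3875 ± 0.0294 and 0.250 ± 0.0517 RPKM. They passed voom on recovered reads (adjusted p = 0.0142 and 0.0225) but not limma without the filter (0.0856 and 0.19). The death receptors TNFRSF10A and TNFRSF10B measured 12.4 ± 0.222 and 5.38 ± 0.555 RPKM in mimics-NC and 14.0 ± 0.651 and 6.51 ± 0.230 RPKM in mimic libraries, and each call (adjusted p = 0.0297 and 0.0444) held in 1 of the 6 fits with a library left out, without mimic replicate 2 and without mimics-NC replicate 1.

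Among 4 DNA repair targets, all tested, 1 fell and 0 rose, beside 9.85% lower and 11.7% higher among all tested genes. PCNA, the sliding clamp of DNA replication and repair, fell from 34.1 ± 1.90 to 26.1 ± 0.165 RPKM (log2 difference -0.38, limma adjusted p = 0.00194), while XPC, which finds damaged DNA, measured 22.9 ± 0.977 and 23.4 ± 0.743 RPKM (adjusted p = 0.626). Of the metabolism and autophagy targets 10 of 14 were tested, 3 rose and 0 fell (median 0.11), 1 to 3 with 1 library left out. SESN2, the stress-induced relative of SESN1, rose from 3.96 ± 0.175 to 5.37 ± 0.218 RPKM (0.40, adjusted p = 0.00277). ALDH4A1, an enzyme of proline breakdown, and DRAM1, a lysosomal autophagy protein, measured 2.35 ± 0.128 and 6.76 ± 0.275 RPKM in mimics-NC and 2.94 ± 0.181 and 7.82 ± 0.251 RPKM in mimic libraries. Their calls (adjusted p = 0.0253 and 0.0242) held in 2 of the 6 fits with a library left out, those lacking mimics-NC replicate 1 and mimic replicate 3. Of 10 tested among 15 other direct targets, IGFBP3, which binds insulin-like growth factors, rose from 9.81 ± 0.520 to 11.9 ± 0.533 RPKM (0.26, adjusted p = 0.0143), and 0 fell. ASCC3, a helicase of DNA repair, measured 5.94 ± 0.219 and 5.65 ± 0.0456 RPKM (adjusted p = 0.319).

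**Figure D4:**
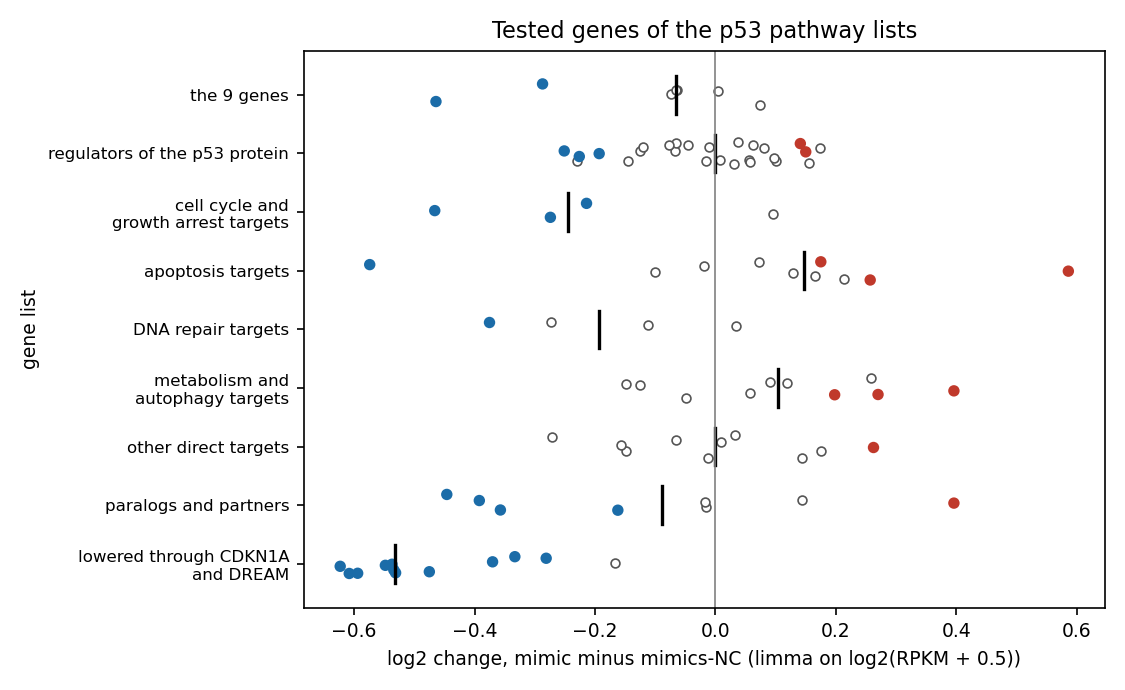
Differences between mimic and mimics-NC libraries on the log2 scale (horizontal axis) for the tested genes of each pathway list, each point a gene, with genes that passed the test filled (red higher, blue lower), the others open, and a bar at the list median. The list of genes known to be lowered by p53 through CDKN1A and the DREAM complex lies at the left, with a median of -0.53. The direct target lists spread to both sides of 0. Which regulator moved the genes of the DREAM list here was not tested.

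When p53 raises p21, the DREAM repressor complex is known to shut off cell cycle genes. Of 12 such genes, all tested, 11 fell and 0 rose (91.7% called, median -0.53, beside 9.85% lower among all tested genes), and 10 to 11 fell with 1 library left out. AURKB, a mitotic kinase, fell from 15.8 ± 0.433 to 10.1 ± 0.474 RPKM (log2 difference -0.62, limma adjusted p = 0.000352), and CCNA2, cyclin A2, from 23.7 ± 1.55 to 15.3 ± 0.139 RPKM (-0.61, adjusted p = 0.000535). CDC20, an activator of the anaphase-promoting complex, fell from 6.80 ± 0.296 to 4.34 ± 0.212 RPKM, and CDC25C, a phosphatase that starts mitosis, from 3.52 ± 0.224 to 2.25 ± 0.229 RPKM. The exception, CKS1B, a subunit of cyclin-dependent kinases, measured 9.87 ± 0.445 and 8.76 ± 0.932 RPKM (adjusted p = 0.164). CDKN1A, through which this list was named, stayed between 0.161 and 0.249 RPKM in all 6 libraries. The list holds general cell cycle genes, and which regulator moved them was not tested.

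Among paralogs and partners of the members 8 of 11 were tested and 62.5% of these called, beside 21.5% of all tested genes. SESN2 rose and 4 fell, the reductase subunits RRM1 and RRM2 with BTG3 and GADD45B. BTG3, of the same antiproliferative family as BTG2, fell from 9.43 ± 0.247 to 7.07 ± 0.296 RPKM (log2 difference -0.39, limma adjusted p = 0.00162). GADD45B, a relative of GADD45A, fell from 15.2 ± 0.390 to 11.7 ± 0.401 RPKM (-0.36, adjusted p = 0.00159). The differences between these relatives and the members themselves were not tested.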

How the data were processed

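Messenger RNA of 6 Huh7 libraries, 3 with mimics-NC and 3 with miR-361-3p mimics, was measured by sequencing. The authors deposited 1 table of RPKM for 33707 genes with each gene's length in bases and its GRCh38 position. Trimmomatic 0.36, featureCounts from Subread 1.5.1 and edgeR 3.12.1 were used, per the submitters' processing notes. For the aligner, annotation and strand setting, nothing is given in the sources used here.

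RPKM times length gave the whole reads recovered behind the deposited values, 100% of them within 0.01 of a whole number. Genes averaging 1 RPKM or more were tested with limma 3.58.1 (trended empirical Bayes, R 4.3.3) on log2(RPKM + 0.5) over both groups, with Benjamini-Hochberg adjustment over 13158 genes. The procedure was also run on simulated data. Few genes were changed there, by more than most differences seen here, so that run says little about calls of small size. Voom on reads of genes with a mean of at least 10 was added after the data were seen. The exact permutation test was used for ratios. Other alternatives were pseudocounts of 0.1 and 1, no filter, median-of-ratios scaling, quantile normalization, a replicate block and each library left out.

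The members, lists and tests were chosen with earlier results of these data known. The text names all members, up to 4 called genes per list by size of change (or the most abundant tested, to make 2), RRM1 and RRM2, and the 3 genes nearest MDM2 and CDKN1A. HUWE1, CKS1B, BBC3, PIDD1, the cell type markers and the genes overlapping a member were named outside this rule. Lists are described by counts and medians, with no test of a list. Python 3.11.15 was used for counts, sites and figures. Some matched sequence is not reported here.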

Additional observations from a re-analysis of the deposited data

How the results depend on the processing

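The number of genes called, 2835, was 1716 without the filter on low values, 1780 to 2150 with any 1 library left out (1780 without mimics-NC replicate 2, 1820 without mimic replicate 3, 1859 without mimics-NC replicate 3), 3787 with voom and 3976 with voom on genes with a mean of at least 10 reads, a setting chosen after seeing the data. Members called lower numbered 2 under every alternative run but the added voom setting, which gave 3, and 0 were higher under any of them. Estimates of GADD45A, BTG2 and CDKN1A near 0 changed sign. GADD45A was 0.0039 and became -0.0096 with median-of-ratios scaling, -0.0077 with quantile normalization, -0.0031 with voom, -0.0043 with voom from 10 reads, and -0.049 to 0.071 with 1 library left out. BTG2 ran from -0.0021 to 0.15 with 1 library left out. CDKN1A was -0.0052 with voom from 10 reads and, with 1 library left out, -0.03 to 0.06 without the filter (below 0 also at -0.00082 without mimics-NC replicate 2 and at -0.0059 without mimic replicate 1) and -0.15 to 0.20 with voom (below 0 also at -0.025 and -0.036 without mimics-NC replicates 1 and 2, and at -0.053 without mimic replicate 1). The MDM4 to MDM2 ratio differed by 0.20 to 0.26 and the RRM2B to RRM2 ratio by 0.05 to 0.13 on the log2 scale with 1 library left out. Of 126 values of members under alternatives, 103 kept direction and side of the threshold, 7 newly passed and 16 changed sign. Of 351 values of named list genes, 276 kept both, 75 no longer passed and 0 changed sign. CKS1B, BBC3 and PIDD1 were not among these. The replicate numbers did not pair the samples, with correlations of -0.052, -0.016 and 0.023 between same-numbered deviations, and with a replicate block 1976 genes were called, 2 members lower and 0 higher. Under that block 0 p53 regulators were called (adjusted p 0.0623 to 0.091 for the 5), and CCNG1 (0.0625), TNFRSF10A (0.0766) and TNFRSF10B (0.0938) did not pass, leaving 1 apoptosis target higher, and 5 direct targets higher and 4 lower over all their lists. Without the filter these 3 also missed the threshold (0.0644, 0.066 and 0.126), as did ALDH4A1 (0.0731) and DRAM1 (0.0567). The 5 regulators missed it there too (adjusted p 0.0807 to 0.113), and 10 genes of the DREAM list were lower in place of 11. With voom on the tested genes 6 regulators were lower in place of 3. DNA repair targets lower then numbered 2 in place of 1, and other direct targets lower 2 in place of 0. Metabolism and autophagy targets higher numbered 4 in place of 3. The cause of these shifts was not tested. Depth limits CDKN1A most, at 22 to 34 reads per library.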
